A study of Homo sapiens with 12 samples.

Results

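Ribosome biogenesis factors are the proteins that transcribe, cut, modify and fold ribosomal RNA and load ribosomal proteins onto it. They were followed in NB4, a cell line from human acute promyelocytic leukemia whose cells take on granulocyte features when given all-trans retinoic acid (ATRA). A list of 55 genes was taken by name and function, and 52 of them had a probe set annotated to that gene alone, out of 18404 genes measured in this way on Affymetrix ST arrays. PPAN had only a probe set shared with other genes, and DDX18 and EBNA1BP2 had none in the annotation used, so these 3 were not analysed here. NPM1, NHP2 and BOP1 had several probe sets, and for them the set with the highest average signal was used.

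Ribosome production starts in the nucleolus, where RNA polymerase I copies ribosomal DNA into a long precursor. Small nucleolar ribonucleoproteins and methyltransferases modify the precursor, the small subunit processome cuts and folds its first part, and a separate set of factors builds the large subunit from the rest. The work is tied to cell growth, and promyelocytes, which are large and dividing, have prominent nucleoli that shrink as granulocytes mature.

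Arrays fell into 4 groups of 3, all from NB4 cells. ATRA-treated knockdown cells carried shRNA1 (2 arrays, called replicates 1 and 2) or shRNA2 (1 array) against HOTAIRM1, a long noncoding RNA of the HOXA locus, and had 0.5 uM ATRA for 96 hours. Untreated knockdown cells were the same lines without ATRA. ATRA-treated control cells were scrambled shRNA cells (2 arrays) and wild type cells (1 array) with the same treatment, and untreated control cells were those lines without it. The shRNA lines, scrambled ones included, were made with pLKO.3G lentivirus, sorted for GFP and grown from single cells, while wild type cells carried no vector. The duplicates are called biological, but nothing says that they were separate clones, so p values reflect only the spread among these arrays, which can be technical. HOTAIRM1 had no named probe set, so its knockdown was not checked here.

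Values are log2 signals as deposited, and a difference of 1 is a doubling of signal. Array medians ran from 7.73 to 7.81. Upper quartiles were 9.17, 9.11 and 9.11 on the control arrays with ATRA and ran from 9.23 to 9.28 on the other arrays. With 3 arrays in a group, precision is limited by their number, and levels of different probe sets cannot be set against each other. The mean level of the 6 measured of 7 promyelocyte markers lay between 10.67 and 10.99 in knockdown cells with ATRA, 10.87 and 11.20 in untreated knockdown cells, 10.19 and 10.86 in control cells with ATRA, and 10.49 and 11.11 in untreated control cells. Single markers differed, with the granule enzyme MPO between 12.67 and 13.81 and the granule protease CTSG between 7.56 and 11.45 over the 12 arrays. With ATRA, 4 of the 6 promyelocyte markers had a lower mean and 2 a higher one in each kind of cells. CSF3R had a mean of 10.45 with ATRA against 9.15 untreated in knockdown cells, and 10.68 against 9.76 in control cells. All 6 granulocytic maturation markers rose with ATRA in both kinds of cells. The mean level of the 4 measured of 5 lymphocyte markers lay between 6.75 and 7.55 over all arrays. The T cell markers lay between 6.19 and 6.75 (CD3E) and between 6.95 and 8.61 (CD3D), and the B cell markers between 5.27 and 5.81 (MS4A1) and between 7.87 and 10.91 (CD79A). Untreated scrambled replicate 2 stood apart, with the maturation marker TGM2 at 12.86 against 7.93 to 8.30 on the other untreated arrays and the B cell gene CD79A at 10.91 against 7.87 to 8.57. The wild type ATRA array also stood apart, with the lowest level of 42 of the 52 factors among the 6 ATRA arrays. Results that turn on these arrays are given with and without them. Per-array values below follow the order shRNA1 replicate 1, shRNA1 replicate 2 and shRNA2 for knockdown cells, and scrambled replicate 1, scrambled replicate 2 and wild type for control cells.

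The promoters of these genes are shown first, and their part in the ATRA changes was not tested. RefSeq windows of the GRCh38.p14 build, from 250 bases before to 50 after the annotated start, were found for 47 of the 55 genes. The core E-box CACGTG, the palindrome that MYC with MAX and the USF factors are known to bind, was present for 20 of the 47 genes (42.6%), a gene counting where any of its windows held it, against 10.9% of 14230 tested genes counted the same way. By window it was in 21 of the members' 57 windows (36.8%), against 7.26% of all 35116 windows. The ETS-type motif CCGGAAG, which GABP and other ETS factors are known to bind and which reads CTTCCGG on the opposite strand, was present for 19 of the 47 genes (40.4%), against 16.8% of tested genes, and in 36.8% of member windows, against 10.3% of all windows. Both motifs were found for 9 genes, in the same window for 7 of them. The tested genes and all windows were not matched to the members for base composition. A match is a description of the letters and shows no binding. Stretches from 100 bases before to 30 after the start are printed below with both motifs in capitals, for genes of 4 roles. LYAR, FBL, UTP20 and MRTO4 were picked because each fell most in control cells among its role's genes with a core E-box in this stretch. They therefore do not stand for the other members. UTP18 and NOP10 were added for their 2 copies in a single window. In the stretches LYAR, FBL, UTP20, MRTO4 and NOP10 show a single core E-box and UTP18 shows 2. Both motifs appear in UTP18, which changed by -0.73 in knockdown and -0.92 in control cells, and in NOP10, which changed least in control cells. The stretches lie on chr4:4289992-4290121 (minus strand, LYAR), chr19:39846350-39846479 (minus, FBL), chr12:101280005-101280134 (plus, UTP20), chr1:19251705-19251834 (plus, MRTO4), chr17:51260446-51260575 (plus, UTP18) and chr15:34343107-34343236 (minus, NOP10).
LYAR: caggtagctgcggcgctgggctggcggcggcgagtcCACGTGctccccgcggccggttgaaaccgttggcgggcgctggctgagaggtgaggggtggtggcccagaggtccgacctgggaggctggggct
FBL: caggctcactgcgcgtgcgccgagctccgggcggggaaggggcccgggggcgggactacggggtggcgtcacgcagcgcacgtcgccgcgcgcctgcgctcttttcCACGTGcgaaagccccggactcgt
UTP20: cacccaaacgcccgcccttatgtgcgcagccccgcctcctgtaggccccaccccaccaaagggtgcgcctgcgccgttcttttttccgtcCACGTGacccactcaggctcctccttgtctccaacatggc
MRTO4: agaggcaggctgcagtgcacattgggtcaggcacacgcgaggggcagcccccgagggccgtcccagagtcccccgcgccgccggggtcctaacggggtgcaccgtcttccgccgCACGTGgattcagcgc
UTP18: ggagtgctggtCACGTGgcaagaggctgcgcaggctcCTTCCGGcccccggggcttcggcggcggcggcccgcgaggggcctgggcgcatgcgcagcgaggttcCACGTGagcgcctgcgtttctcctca
NOP10: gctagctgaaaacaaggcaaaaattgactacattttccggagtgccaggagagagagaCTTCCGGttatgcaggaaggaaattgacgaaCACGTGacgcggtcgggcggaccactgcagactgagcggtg
The E-box of these stretches begins at position -64 from the annotated start in LYAR, 7 in FBL, -10 in UTP20, 15 in MRTO4 and -11 in NOP10, while UTP18 holds copies at -89 and 5. Over all member windows there were 23 copies, and 18 of them began within 50 bases of the start on either side. By role the core E-box was present for 0 of 7 RNA polymerase I genes with a window, 2 of 4 nucleolar protein genes, 3 of 5 small nucleolar ribonucleoprotein genes, 1 of 2 methyltransferase genes, 9 of 18 small subunit genes and 5 of 11 large subunit genes. Of the 9 motifs searched, the remaining ones were searched on both strands in the same windows. CACGCG was present for 34% of member genes and 18.7% of tested genes, GCATGCGC for 8.51% and 4.86%, TGACGTCA for 4.26% and 3.11%, GGGCGG for 78.7% and 65.9%, CCAAT for 40.4% and 42.2%, CATGTG for 6.38% and 11.3%, and TATAAA for 2.13% and 11.9%. Members with and without the core E-box had similar medians. In knockdown cells the median ATRA change was -0.79 for the 19 measured members with it and -0.77 for the 26 without it, and in control cells it was -1.05 and -1.01. The motifs were chosen with the expression results known.

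**Figure D1:**
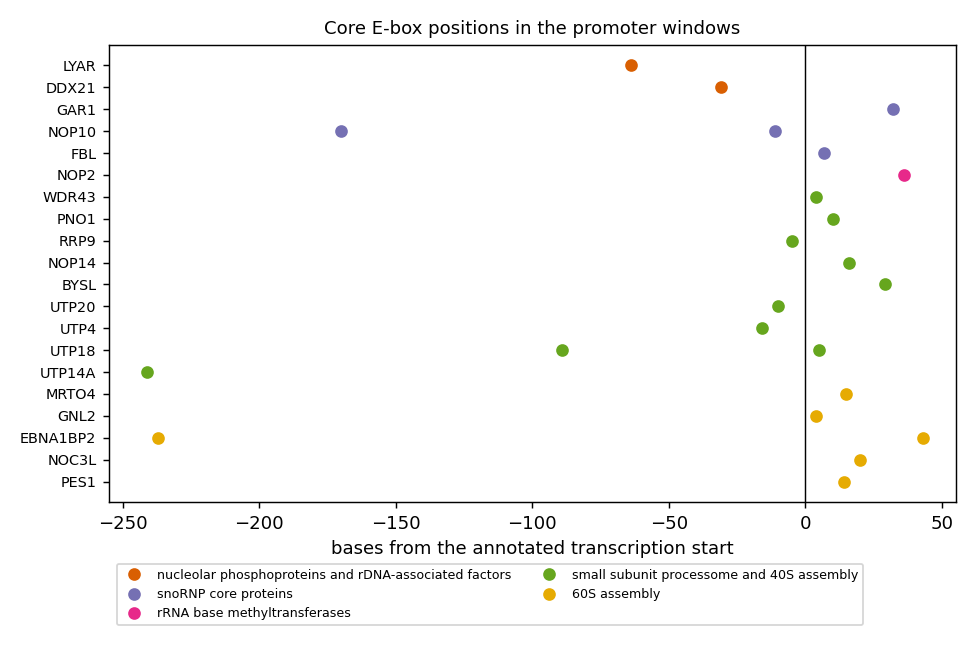
Start of each core E-box (CACGTG) in the promoter windows, in bases from the annotated transcription start on the x axis, one line per gene with a copy, coloured by role. Of 23 copies, 18 lie within 50 bases of the start, and no gene of RNA polymerase I transcription appears.

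The first comparison asks how the factors changed with ATRA. In knockdown cells 47 of the 52 fell and 0 rose, with a median change of -0.78 against -0.032 over all genes tested. In control cells 47 fell and 0 rose as well, with a median change of -1.05 against 0.052 over all genes. The count rests on limma with Benjamini-Hochberg adjustment over all 18404 genes, at an adjusted p under 0.05. By the same rule 14.7% of all genes were lower and 10.1% higher in knockdown cells, and 20.9% were lower and 15.2% higher in control cells. All genes include dim ones, and these shares were not matched to the members for signal level. With the dimmest 33.3% of genes left out, 2707 genes were still called lower in knockdown cells and 3817 in control cells. At an unadjusted p under 0.05, 0 members were higher in either kind of cells. Of all 18404 genes, 2616 were higher by that rule in knockdown cells and 4176 in control cells. All 3 ATRA arrays lay below all 3 untreated arrays in 47 members in knockdown cells, against 24.6% of all genes, and in 48 members in control cells, against 23.4%. Without both wild type arrays 43 members fell in control cells, with a median of -0.84, and without untreated scrambled replicate 2, 46 fell. Over all genes these fits called 2477 and 3748 lower in control cells, against 3844 with all arrays. Changes ran from -1.52 for MRTO4 to 0.0011 for NOP10 in knockdown cells and from -1.84 for MRTO4 to -0.070 for NOP10 in control cells, and 14 and 28 members lay below -1. The control count turned on wild type. By line, 16, 7 and 17 members lay below -1 in shRNA1 replicates 1 and 2 and shRNA2. In scrambled replicates 1 and 2 there were 19 and 4, and in wild type 43. In bulk RNA, fewer cells of a type and less RNA per cell cannot be told apart. Of 4 proliferation markers (MKI67, TOP2A, PCNA and CCNB1), 3 fell in each kind of cells, with median changes of -0.53 in knockdown and -0.70 in control cells, and their part in the result was not tested.

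**Figure D2:**
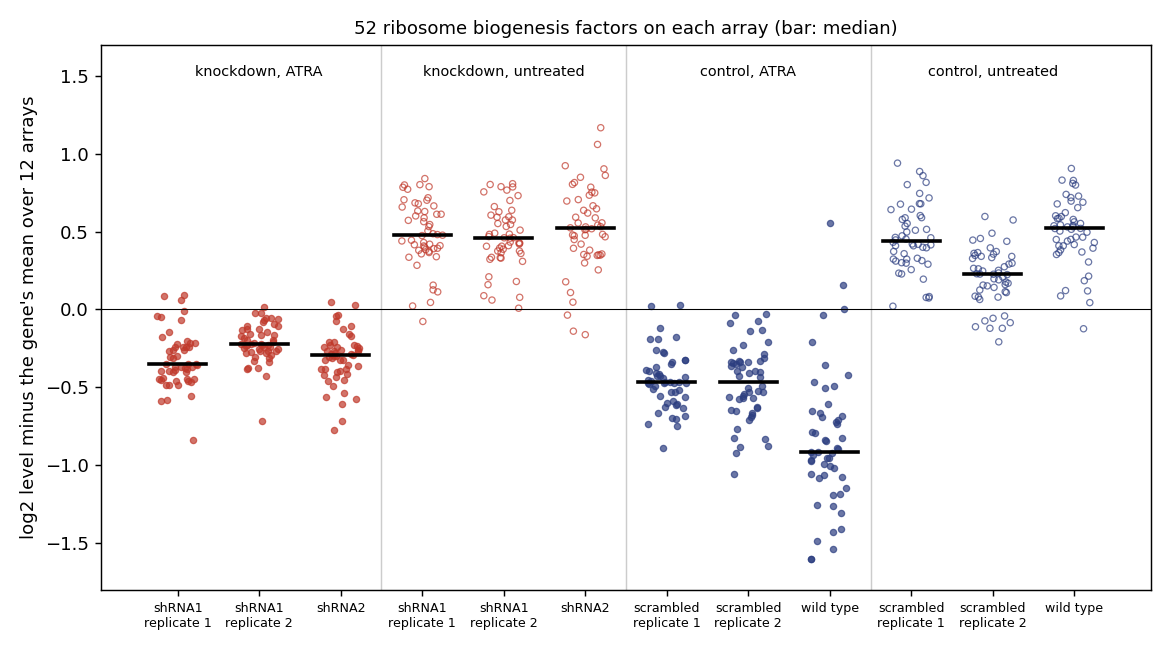
Level of each of the 52 factors on each array minus that gene's mean over the 12 arrays (log2, y axis), with the 3 arrays of each group side by side on the x axis and 1 point per gene. ATRA arrays lie mostly below 0 and untreated arrays mostly above it, and the wild type ATRA array reaches lowest.

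Among the 8 genes of RNA polymerase I transcription, 6 fell in knockdown cells (median -0.59) and 6 in control cells (median -0.88). POLR1B is the second largest subunit and POLR1A the largest, and together they form the catalytic centre. In knockdown cells POLR1B lay at 8.79, 9.10 and 8.77 after ATRA, against 10.15, 10.19 and 10.19 untreated. In control cells POLR1B lay at 8.69, 8.70 and 8.12 after ATRA, against 10.12, 9.60 and 10.11 untreated. ATRA and untreated arrays of POLR1B did not overlap in either kind of cells. POLR1B fell by 1.29 in knockdown cells (SE 0.17, adjusted p = 0.000554) and fell by 1.44 in control cells (SE 0.17, adjusted p = 0.000154). In knockdown cells POLR1A lay at 9.43, 9.68 and 9.44 after ATRA, against 10.30, 10.37 and 10.29 untreated. In control cells POLR1A lay at 9.54, 9.39 and 8.75 after ATRA, against 10.29, 10.08 and 10.28 untreated. POLR1A also had no overlap, and its wild type array after ATRA was the lowest. POLR1A fell by 0.80 in knockdown cells (SE 0.17, adjusted p = 0.00425) and fell by 0.99 in control cells (SE 0.17, adjusted p = 0.000898). Without both wild type arrays its control difference was -0.72. POLR1E, an auxiliary subunit of the initiation and elongation module, and RRN3, the initiation factor that brings the polymerase to its promoter, fell too. Changes in knockdown and control cells were -0.81 and -1.34 for POLR1E and -0.45 and -0.78 for RRN3, and this order is kept in parentheses below. RRN3 has pseudogenes with shared sequence, so its probe set is uncertain.

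UBTF, which binds ribosomal DNA and keeps it open, moved less. In knockdown cells UBTF lay at 9.96, 10.20 and 9.94 after ATRA, against 10.52, 10.39 and 10.44 untreated. In control cells UBTF lay at 10.06, 10.05 and 9.53 after ATRA, against 10.25, 10.29 and 10.55 untreated. The wild type array after ATRA was the lowest of the 12, and the groups did not overlap. UBTF fell by 0.41 in knockdown cells (SE 0.14, adjusted p = 0.0485) and fell by 0.49 in control cells (SE 0.14, adjusted p = 0.0181). With line as a block the adjusted p was 0.107 and 0.0505, and with quantile normalization it was 0.0626 and 0.0762. The call in control cells was lost without the wild type ATRA array (difference -0.31, adjusted p = 0.0549) or the untreated one (adjusted p = 0.0796). The call in knockdown cells was lost without any of untreated scrambled replicates 1 and 2, untreated shRNA1 replicates 1 and 2, untreated shRNA2, ATRA-treated shRNA1 replicate 1 and ATRA-treated shRNA2, with adjusted p between 0.0517 and 0.145. POLR1C and POLR1D are shared with RNA polymerase III. POLR1C fell (-0.73 and -1.02) in knockdown and control cells, whereas POLR1D passed in neither. In knockdown cells POLR1D lay at 11.29, 11.07 and 11.13 after ATRA, against 11.34, 11.24 and 11.28 untreated. In control cells POLR1D lay at 10.90, 11.09 and 11.39 after ATRA, against 11.46, 11.29 and 11.27 untreated. The groups of POLR1D overlapped in both kinds of cells, and its differences were -0.12 in knockdown cells (adjusted p = 0.513) and -0.22 in control cells (adjusted p = 0.156). TAF1D, a subunit of the promoter selectivity factor, had differences of -0.075 and -0.26 (adjusted p = 0.651 and 0.0549).

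All 5 nucleolar proteins fell in both kinds of cells, with medians of -0.78 in knockdown and -1.08 in control cells. NOLC1, a chaperone of small nucleolar ribonucleoproteins, had the largest fall of the group in control cells. In knockdown cells NOLC1 lay at 10.36, 10.46 and 10.37 after ATRA, against 11.43, 11.43 and 11.31 untreated. In control cells NOLC1 lay at 10.30, 10.37 and 9.36 after ATRA, against 11.45, 10.92 and 11.46 untreated. The wild type array after ATRA was again the lowest, and untreated scrambled replicate 2 the lowest of the untreated arrays. NOLC1 fell by 0.99 in knockdown cells (SE 0.23, adjusted p = 0.00773) and fell by 1.27 in control cells (SE 0.23, adjusted p = 0.00136). With scrambled and shRNA1 lines only, its control difference was -0.85. LYAR, a zinc finger protein of the nucleolus linked to growth, had the largest fall of the group in knockdown cells. In knockdown cells LYAR lay at 9.04, 8.81 and 9.11 after ATRA, against 10.33, 10.16 and 10.59 untreated. In control cells LYAR lay at 8.83, 8.90 and 8.54 after ATRA, against 10.11, 9.61 and 10.33 untreated. Its groups stayed apart. LYAR fell by 1.37 in knockdown cells (SE 0.18, adjusted p = 0.000474) and fell by 1.26 in control cells (SE 0.18, adjusted p = 0.000306). NCL, the RNA-binding protein nucleolin, is among the most abundant nucleolar proteins. In knockdown cells NCL lay at 11.18, 11.28 and 11.29 after ATRA, against 11.97, 11.99 and 12.09 untreated. In control cells NCL lay at 11.17, 11.27 and 10.77 after ATRA, against 11.97, 11.69 and 12.06 untreated. NCL fell by 0.77 in knockdown cells (SE 0.13, adjusted p = 0.00145) and fell by 0.83 in control cells (SE 0.13, adjusted p = 0.000554), with no overlap between ATRA and untreated arrays. DDX21, an RNA helicase, fell (-0.78 and -1.08) in knockdown and control cells.

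NPM1 is nucleophosmin, a nucleolar chaperone. In knockdown cells NPM1 lay at 12.07, 11.92 and 12.04 after ATRA, against 12.66, 12.65 and 12.61 untreated. In control cells NPM1 lay at 11.79, 11.996 and 11.79 after ATRA, against 12.54, 12.33 and 12.65 untreated. The groups did not overlap. NPM1 fell by 0.63 in knockdown cells (SE 0.093, adjusted p = 0.000818) and fell by 0.65 in control cells (SE 0.093, adjusted p = 0.000352). Its 3 probe sets differed. A second one changed by -0.65 in knockdown and -0.80 in control cells, while the third changed by 0.063 and -0.10. The third was dim, with a mean of 5.71 over the 12 arrays, below the arrays' lower quartiles of 6.38 to 6.49. It therefore says little about NPM1. NPM1 has pseudogenes, so these values are uncertain.

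Of the 6 core proteins of small nucleolar ribonucleoproteins, 5 fell in knockdown cells (median -0.58) and 4 in control cells (median -0.86). FBL, fibrillarin, is the ribose methyltransferase of the box C/D particles. In knockdown cells FBL lay at 11.15, 11.02 and 10.86 after ATRA, against 11.56, 11.54 and 11.69 untreated. In control cells FBL lay at 10.71, 10.87 and 10.61 after ATRA, against 11.53, 11.44 and 11.63 untreated. The groups did not overlap. FBL fell by 0.59 in knockdown cells (SE 0.097, adjusted p = 0.00141) and fell by 0.80 in control cells (SE 0.097, adjusted p = 0.000161). NOP58, its scaffold partner, fell (-0.58 and -0.92) in knockdown and control cells. The box H/ACA particles, which convert uridine to pseudouridine, have 4 core proteins here, and these differed in size of change. On the probe set used, NHP2 fell most of the 6 core proteins in both kinds of cells. In knockdown cells NHP2 lay at 9.38, 9.52 and 9.53 after ATRA, against 10.46, 10.56 and 10.26 untreated. In control cells NHP2 lay at 9.32, 9.22 and 8.29 after ATRA, against 10.29, 10.10 and 10.40 untreated. ATRA arrays lay below untreated ones throughout, the wild type one lowest. NHP2 fell by 0.95 in knockdown cells (SE 0.21, adjusted p = 0.00721) and fell by 1.32 in control cells (SE 0.21, adjusted p = 0.00076), and its other probe set changed by -0.64 and -0.81. The size of its fall therefore depends on the probe set. NHP2 lies on chromosome 5, while the number of the set used falls among those of chromosome 10 genes. Whether that set reads NHP2 was not checked, so its values are uncertain. DKC1, the pseudouridine synthase dyskerin, fell (-0.77 and -1.10), which is more than NHP2 fell on the other set.

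NOP10, a small subunit of the same particle, did not pass in either kind of cells. In knockdown cells NOP10 lay at 11.63, 11.57 and 11.66 after ATRA, against 11.66, 11.72 and 11.47 untreated. In control cells NOP10 lay at 11.67, 11.55 and 11.63 after ATRA, against 11.71, 11.59 and 11.76 untreated. All 12 arrays of NOP10 lay close together. Its difference was 0.0011 in knockdown cells (adjusted p = 0.995) and -0.070 in control cells (adjusted p = 0.513). GAR1, the remaining H/ACA core protein, fell by 0.45 in knockdown cells (SE 0.13, adjusted p = 0.0225). In control cells its difference was -0.21 (adjusted p = 0.217), and the difference between the responses did not pass (adjusted p = 0.501). The knockdown call of GAR1 was lost without untreated shRNA2 (0.0924) or ATRA-treated shRNA1 replicate 1 (0.0646) or 2 (0.0655), each an adjusted p.

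Both methyltransferases of ribosomal RNA bases fell. NOP2 methylates a cytosine of the large subunit RNA. In knockdown cells NOP2 lay at 10.46, 10.63 and 10.44 after ATRA, against 11.15, 11.06 and 11.09 untreated. In control cells NOP2 lay at 10.47, 10.40 and 9.78 after ATRA, against 11.03, 11.09 and 11.18 untreated. The groups stayed apart. NOP2 fell by 0.59 in knockdown cells (SE 0.15, adjusted p = 0.0125) and fell by 0.88 in control cells (SE 0.15, adjusted p = 0.000928). RRP8 methylates an adenine of that RNA. In knockdown cells RRP8 lay at 8.16, 8.15 and 7.98 after ATRA, against 8.49, 8.57 and 8.38 untreated. In control cells RRP8 lay at 7.72, 7.98 and 7.54 after ATRA, against 8.40, 8.55 and 8.56 untreated. The groups did not overlap. RRP8 fell by 0.38 in knockdown cells (SE 0.11, adjusted p = 0.0226) and fell by 0.76 in control cells (SE 0.11, adjusted p = 0.000367). The call in knockdown cells was lost without untreated shRNA1 replicate 1 (adjusted p = 0.0602), untreated shRNA1 replicate 2 (0.0832) or ATRA-treated shRNA2 (0.0915).

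**Figure D3:**
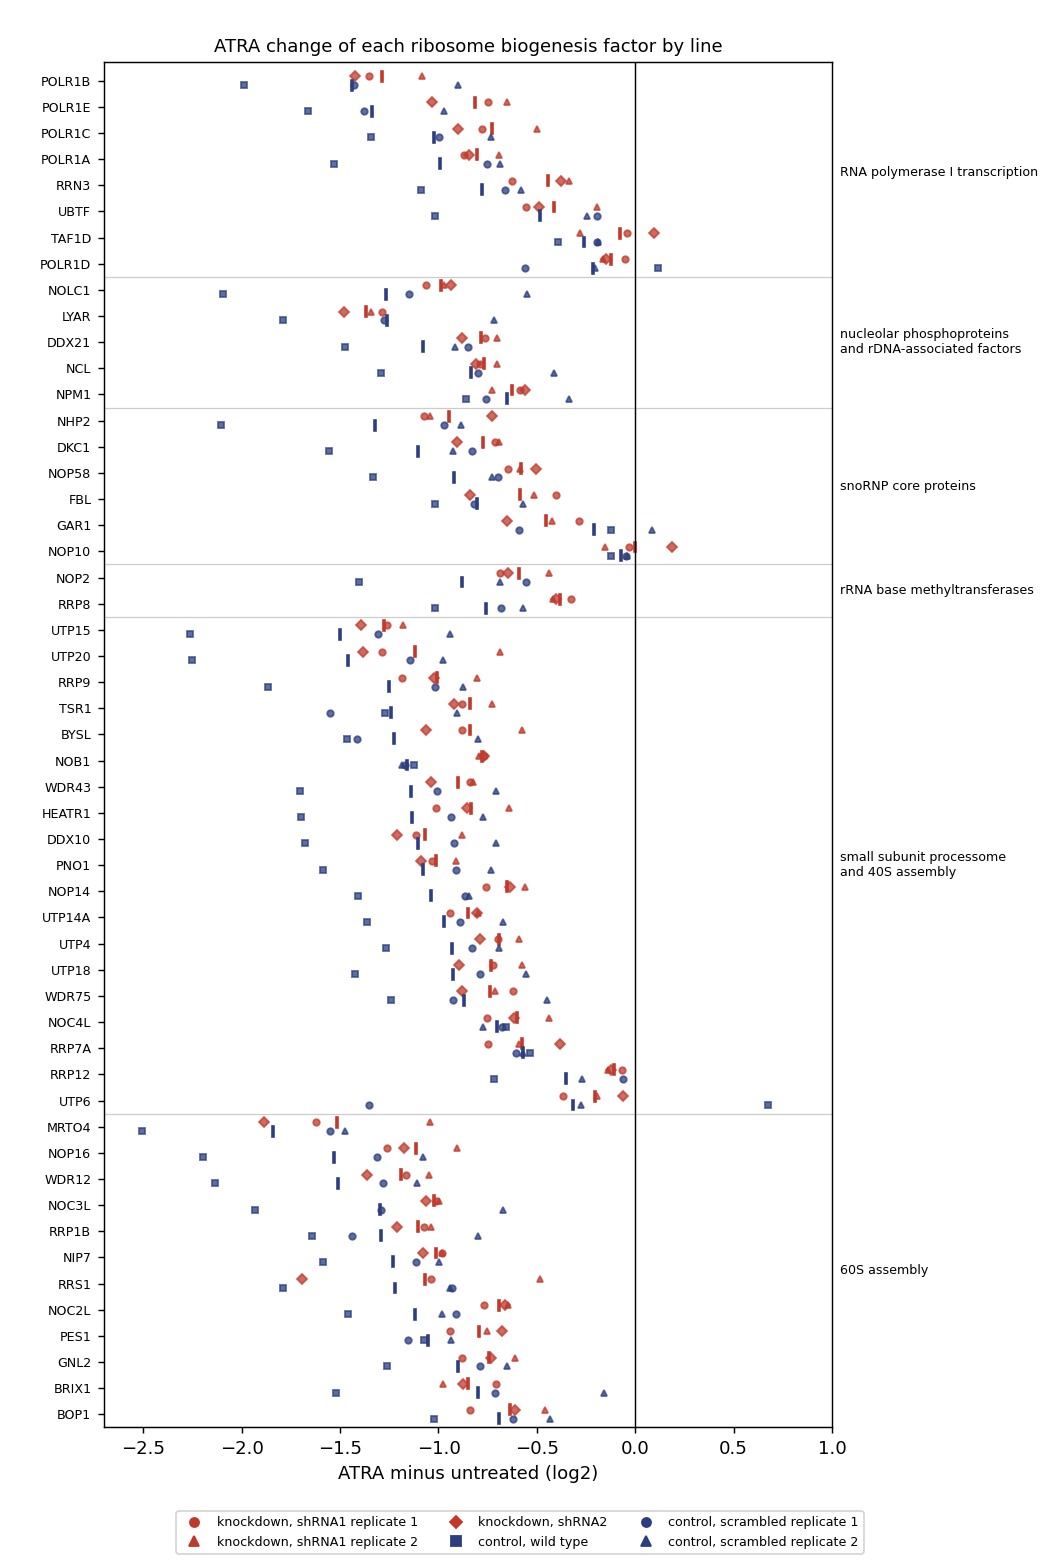
ATRA minus untreated (log2, x axis) for each of the 52 factors (y axis, by role), with 1 point per line, knockdown lines above control lines, and vertical ticks at the group means. The wild type line (squares) lies furthest to the left for most genes, while NOP10 and POLR1D lie near 0.

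The small subunit factors formed the largest role, with 17 of 19 lower in knockdown cells (median -0.84) and 18 of 19 in control cells (median -1.08). UTP15, of the subcomplex that first binds the precursor RNA, fell most. In knockdown cells UTP15 lay at 8.43, 8.51 and 8.40 after ATRA, against 9.69, 9.70 and 9.80 untreated. In control cells UTP15 lay at 8.19, 8.19 and 7.46 after ATRA, against 9.50, 9.13 and 9.72 untreated. Every ATRA array lay below the untreated arrays in each kind of cells. UTP15 fell by 1.28 in knockdown cells (SE 0.19, adjusted p = 0.000739) and fell by 1.503 in control cells (SE 0.19, adjusted p = 0.000176). Other members of that subcomplex fell as well in both kinds of cells, namely HEATR1 (-0.84 and -1.14), WDR43 (-0.90 and -1.14), WDR75 (-0.74 and -0.87) and UTP4 (-0.69 and -0.93). The U3 particle protein RRP9 fell (-1.01 and -1.25). UTP20 (-1.12 and -1.46), UTP14A (-0.85 and -0.97) and UTP18 (-0.73 and -0.92), further processome proteins, fell in both. The partners NOP14 (-0.65 and -1.04) and NOC4L (-0.60 and -0.70) fell, and the helicase DDX10 fell (-1.07 and -1.10).

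UTP6, of a neighbouring subcomplex, was the exception. In knockdown cells UTP6 lay at 9.35, 9.66 and 9.85 after ATRA, against 9.72, 9.86 and 9.91 untreated. In control cells UTP6 lay at 9.38, 9.40 and 10.35 after ATRA, against 10.74, 9.68 and 9.67 untreated. The wild type array was higher after ATRA and those of the other lines lower, and the groups overlapped. Its differences were -0.21 in knockdown cells (adjusted p = 0.694) and -0.32 in control cells (adjusted p = 0.422). The control difference was -0.64 without the wild type ATRA array and 0.037 without untreated scrambled replicate 1. RRP7A, which helps place a processome subcomplex, had one of the smaller changes. In knockdown cells RRP7A lay at 9.48, 9.67 and 9.76 after ATRA, against 10.23, 10.26 and 10.15 untreated. In control cells RRP7A lay at 9.61, 9.15 and 9.38 after ATRA, against 10.21, 9.72 and 9.91 untreated. The groups did not overlap. RRP7A fell by 0.58 in knockdown cells (SE 0.14, adjusted p = 0.00966) and fell by 0.57 in control cells (SE 0.14, adjusted p = 0.00745), and the control call was lost without both wild type arrays (difference -0.59, adjusted p = 0.0503). RRP12, an export and processing factor, fell by 0.35 in control cells (adjusted p = 0.0454), and its difference in knockdown cells was -0.11 (adjusted p = 0.609). The control call was lost with line as a block (adjusted p = 0.0562) and without any of the 3 untreated control arrays, the 3 untreated knockdown arrays, the ATRA arrays of wild type, shRNA1 replicate 2 and shRNA2, with a difference of -0.19 without wild type ATRA. Quantile normalization also lost the control call of RRP12 (difference -0.20, adjusted p = 0.239). The difference between the responses of RRP12 did not pass, with an adjusted p of 0.49.

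Late factors fell too. NOB1 is the endonuclease that makes the final cut of the small subunit RNA. In knockdown cells NOB1 lay at 9.87, 9.89 and 9.85 after ATRA, against 10.64, 10.69 and 10.63 untreated. In control cells NOB1 lay at 9.50, 9.23 and 9.43 after ATRA, against 10.66, 10.41 and 10.55 untreated. The control lines changed by -1.17, -1.18 and -1.12, close to one another, and the groups did not overlap. NOB1 fell by 0.78 in knockdown cells (SE 0.086, adjusted p = 0.000236) and fell by 1.16 in control cells (SE 0.086, adjusted p = 3.23e-05). PNO1, its binding partner, fell (-1.01 and -1.08), and BYSL, another late factor, fell as well (-0.84 and -1.22). TSR1, a late assembly protein related to GTPases, was lower on all ATRA arrays than on all untreated ones. In knockdown cells TSR1 lay at 8.51, 8.73 and 8.60 after ATRA, against 9.39, 9.46 and 9.52 untreated. In control cells TSR1 lay at 8.33, 8.43 and 8.27 after ATRA, against 9.89, 9.33 and 9.54 untreated. The lowest untreated value was still well above the ATRA values. TSR1 fell by 0.84 in knockdown cells (SE 0.12, adjusted p = 0.000717) and fell by 1.24 in control cells (SE 0.12, adjusted p = 6.85e-05).

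All 12 large subunit factors fell in both kinds of cells, with medians of -1.02 in knockdown and -1.23 in control cells. MRTO4, which resembles the stalk protein P0 and holds its place on the forming subunit, fell most of all members. In knockdown cells MRTO4 lay at 8.20, 8.79 and 8.33 after ATRA, against 9.83, 9.83 and 10.21 untreated. In control cells MRTO4 lay at 8.30, 8.17 and 7.44 after ATRA, against 9.85, 9.64 and 9.95 untreated. ATRA arrays of MRTO4 lay far below untreated ones, and the wild type array was the lowest. MRTO4 fell by 1.52 in knockdown cells (SE 0.22, adjusted p = 0.000683) and fell by 1.84 in control cells (SE 0.22, adjusted p = 0.000137), which is 2.86-fold and 3.59-fold lower. The PeBoW complex joins BOP1, PES1 and WDR12 and is needed to process the large subunit RNA. BOP1 fell least of the role in control cells. In knockdown cells BOP1 lay at 9.59, 9.98 and 9.79 after ATRA, against 10.43, 10.44 and 10.40 untreated. In control cells BOP1 lay at 9.87, 9.57 and 9.57 after ATRA, against 10.49, 10.00 and 10.59 untreated. The groups did not overlap. BOP1 fell by 0.64 in knockdown cells (SE 0.15, adjusted p = 0.00872) and fell by 0.69 in control cells (SE 0.15, adjusted p = 0.00402). Its other probe set changed by -0.81 in each kind of cells. PES1 fell (-0.79 and -1.05) and WDR12 fell (-1.19 and -1.51). NOC3L, a partner of NOC2L in early assembly, was lower on every ATRA array. In knockdown cells NOC3L lay at 8.69, 8.74 and 8.63 after ATRA, against 9.70, 9.74 and 9.69 untreated. In control cells NOC3L lay at 8.09, 8.48 and 7.79 after ATRA, against 9.38, 9.15 and 9.72 untreated. NOC3L fell by 1.02 in knockdown cells (SE 0.16, adjusted p = 0.00114) and fell by 1.30 in control cells (SE 0.16, adjusted p = 0.000189). NOC2L fell (-0.69 and -1.12). NOP16, NIP7, RRS1, BRIX1, GNL2 (a GTPase) and RRP1B also fell, with changes from -1.11 to -0.74 in knockdown cells and from -1.53 to -0.80 in control cells. Without both wild type arrays, the control calls of BOP1 (-0.53, adjusted p = 0.0612) and BRIX1 (-0.44, adjusted p = 0.111) were lost.

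Other genes of the pathway were taken from a list. Of 112 other ribosome biogenesis genes listed, 107 were measured. In knockdown cells 86 fell and 1 rose (median -0.57), and in control cells 97 fell and 1 rose (median -0.75). The shares called lower were 80.4% and 90.7%, against 14.7% and 20.9% of all genes. Ribosomal protein genes make up the ribosome itself. Of 80 cytosolic ribosomal protein genes listed, 59 were measured. In knockdown cells 6 fell and 2 rose (median -0.049), and in control cells 16 fell and 0 rose (median -0.16). Their shares called lower, 10.2% and 27.1%, lay near those of all genes, 14.7% and 20.9%. Of all genes, 10.1% and 15.2% were called higher. All 3 ATRA arrays lay below all 3 untreated arrays in 10 of the 59 in knockdown cells and 28 in control cells. The shares of all genes by that rule were 24.6% and 23.4%. The change was negative in 38 and 50 of the 59, against 10463 and 7931 of all 18404 genes. These counts describe the lists, and their difference was not tested. Over the 12 arrays, the mean profile of the members was most closely followed by SNRPC, SFXN1 and WDR36, each with Pearson's r of 0.997, and these points share the ATRA split. Each member's r with the mean of the others had a median of 0.97, and UTP6 had the lowest, 0.19.

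**Figure D4:**
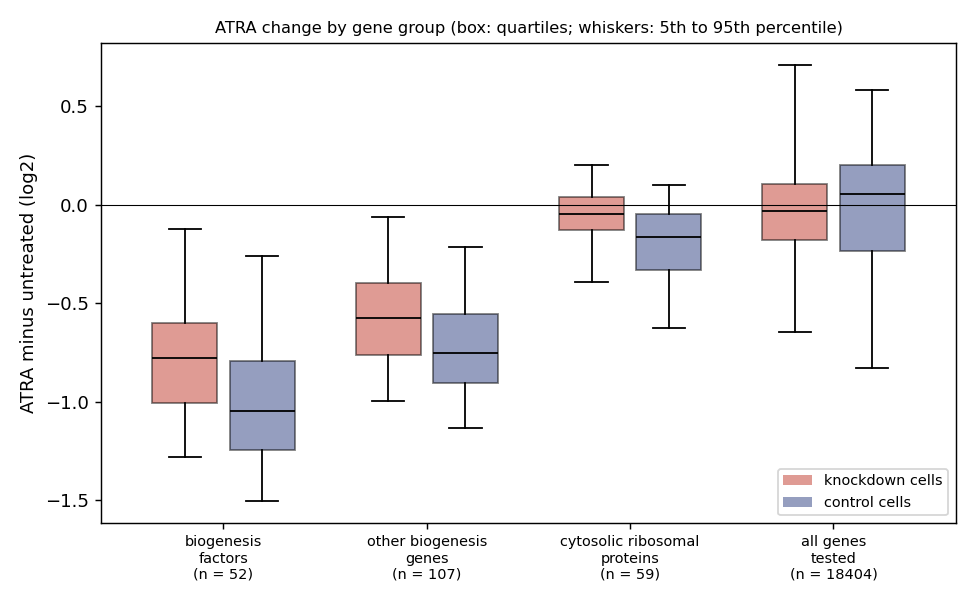
ATRA minus untreated (log2) of the ribosome biogenesis factors, other ribosome biogenesis genes, cytosolic ribosomal protein genes and all genes tested (x axis), in knockdown cells and beside them control cells, as boxes of the quartiles with a line at the median and whiskers to the percentiles named in the title. Medians of the factors are -0.78 and -1.05, and those of ribosomal protein genes -0.049 and -0.16.

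The fall differed in size between lines. The median change over the 52 members was -0.78 for shRNA1 replicate 1, -0.69 for shRNA1 replicate 2, -0.85 for shRNA2, -0.91 for scrambled replicate 1, -0.71 for scrambled replicate 2 and -1.42 for wild type. Wild type had the largest fall of the 6 lines in 43 of 52 members. After ATRA the wild type array was the lowest of the 6 in 42 of 52, and shRNA1 replicate 2 the highest in 30. Untreated scrambled replicate 2 was the lowest untreated array in 37. On that array 4 of the 6 maturation markers (ITGAM, ITGAX, TGM2 and CYBB) lay above the other untreated arrays, and FCAR and C5AR1 lay within their range. The median change of promyelocyte markers was -1.31 in the wild type line, where single markers ran from -2.42 to 1.31. Medians lay between -0.39 and 0.15 in the other lines. The part of either in the size of the fall was not tested.

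The second comparison asks whether knockdown cells differed from control cells. Before ATRA, limma called 0 of 52 members and 0% of all genes in either direction, and 0 members passed an unadjusted p under 0.05, which 1.62% of all genes did with knockdown higher. The median difference was 0.11 against 0.0029 over all genes, and 42 members were positive, as were 51.2% of all genes. All adjusted p values were 0.999. In 3 members (POLR1B, UTP18 and NOC4L) the groups did not overlap, with knockdown higher, against 3.75% of all genes. LYAR, RRP7A and NOC3L had the smallest p, with differences of 0.34, 0.26 and 0.29. Without untreated scrambled replicate 2, the median difference was 0.031 and 36 members were positive, and with array weights 27 were.

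After ATRA, limma again called 0 of 52 members, against 0.0543% of all genes called higher and 0.00543% lower. The median difference was 0.31 against -0.029 over all genes, and 50 of 52 members were higher in knockdown cells, a sign that 45.3% of all genes had. At an unadjusted p under 0.05, 23 members were higher and 0 lower, against 12% of all genes higher. All 3 knockdown arrays lay above all 3 control arrays in 24 members, against 14.3% of all genes. The smallest adjusted p was 0.0506, for NOB1, with a difference of 0.49 (SE 0.086). Next came POLR1E at 0.69 (adjusted p = 0.0539), RRN3 at 0.38 (0.0626), POLR1C at 0.46 (0.0723) and NOC3L at 0.56 (0.0732). In knockdown cells POLR1E lay at 9.18, 9.001 and 8.93 after ATRA, against 9.93, 9.65 and 9.96 untreated. In control cells POLR1E lay at 8.49, 8.40 and 8.14 after ATRA, against 9.87, 9.37 and 9.80 untreated. Its ATRA arrays of knockdown cells all lay above those of control cells. In knockdown cells RRN3 lay at 9.16, 9.37 and 9.32 after ATRA, against 9.78, 9.71 and 9.70 untreated. In control cells RRN3 lay at 8.97, 9.06 and 8.68 after ATRA, against 9.63, 9.65 and 9.77 untreated. RRN3 showed the same order, though its control arrays spread more. In knockdown cells POLR1C lay at 9.04, 9.16 and 8.95 after ATRA, against 9.82, 9.66 and 9.85 untreated. In control cells POLR1C lay at 8.79, 8.60 and 8.36 after ATRA, against 9.79, 9.33 and 9.70 untreated. POLR1C too had every ATRA-treated knockdown array above the control ones. Without untreated scrambled replicate 2, which enters through the shared spread, 4 members were called (NOB1, POLR1C, POLR1E and WDR75), and without ATRA-treated scrambled replicate 1, NOB1 alone was. Over all genes, the first of these fits called 420 higher and 281 lower and the other 66 higher and 12 lower, against 10 higher and 1 lower with all arrays.

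The size depended on the wild type ATRA array. Without it the median difference between knockdown and control was 0.19. Between shRNA1 and scrambled duplicates it was 0.19, with 49 of 52 positive. Between shRNA2 and scrambled cells it was 0.14, between shRNA2 and wild type cells 0.60, and between wild type and scrambled cells, both controls, -0.44. After ATRA, a gap between the control lines was larger than the median gap between knockdown and control cells. Before ATRA the median was 0.13 between shRNA1 and scrambled duplicates, with 46 of 52 positive. Between shRNA2 and scrambled cells it was 0.17 (44 positive), between shRNA2 and wild type cells 0.027 (30), and between wild type and scrambled cells 0.14 (47). Shares over all genes were not taken for these pairs.

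The difference between the 2 ATRA responses was called in 0 of 52 members and 0% of all genes. Its median was 0.23 against -0.0076 over all genes, with 48 of 52 positive against 48.7% of all genes, meaning a smaller fall in knockdown cells. At an unadjusted p under 0.05, 6 members had a higher response, against 5.71% of all genes. In 5 members (NOP58, RRP8, NOP14, NOB1 and NOC2L) the changes of the 3 knockdown lines lay above those of the 3 control lines, against 9.16% of all genes. The smallest adjusted p was 0.271, for NOB1 (0.38), and POLR1E, RRP8, RRN3 and TSR1 followed with 0.53, 0.37, 0.33 and 0.40. Without the wild type ATRA array the median was 0.080, and without both wild type arrays it was 0.015, with 28 of 52 positive. With quantile normalization 41 of 52 were positive.

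**Figure D5:**
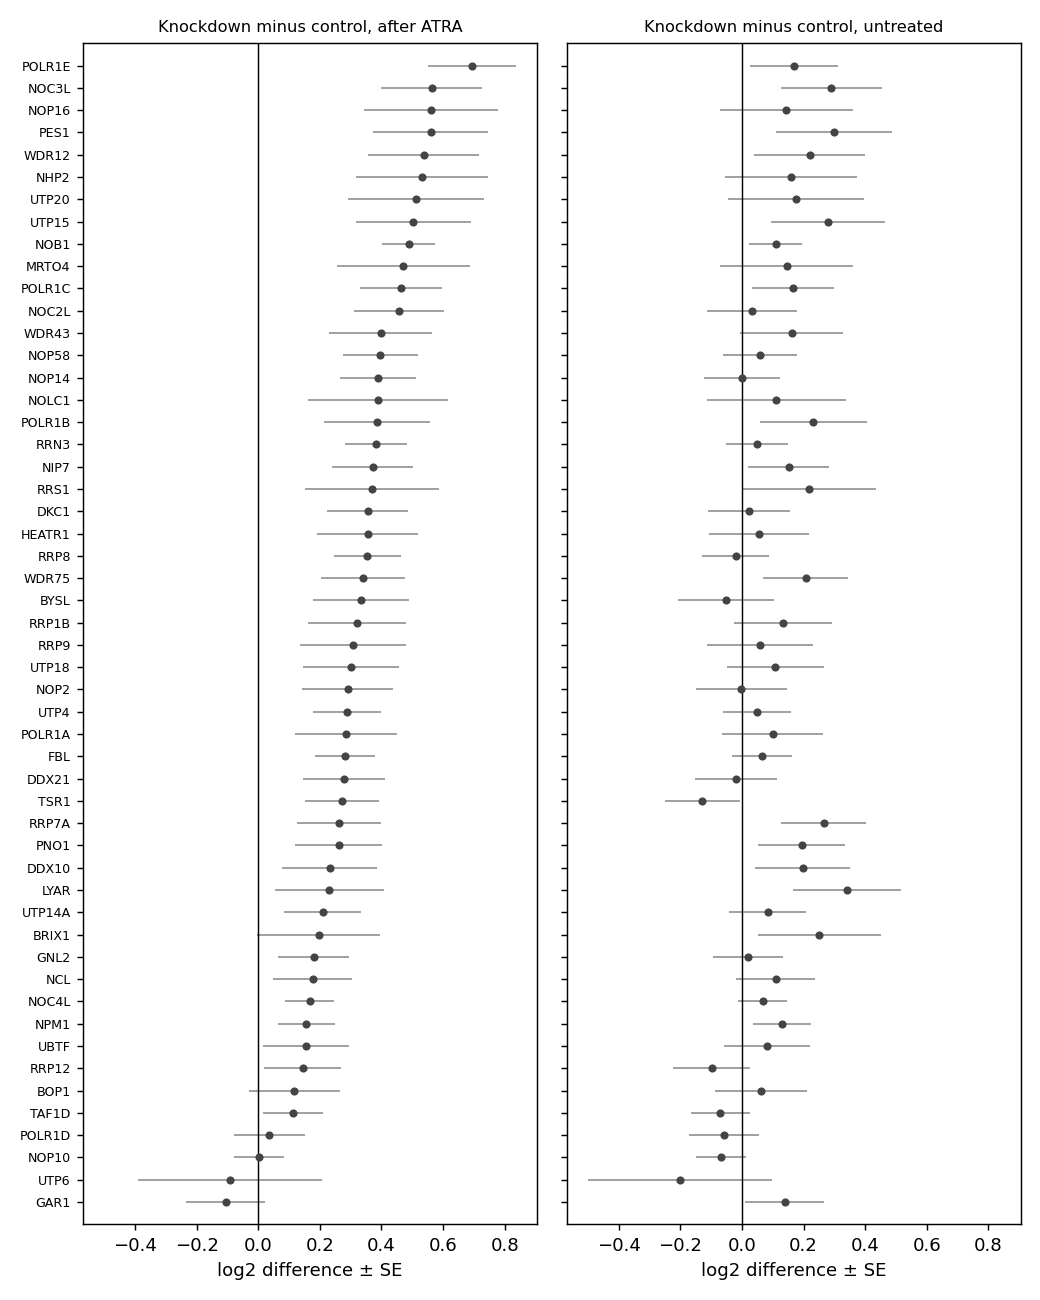
Knockdown minus control (log2, x axis) of each of the 52 factors (y axis) after ATRA (left) and untreated (right), as points with bars of 1 SE from limma. After ATRA 50 of 52 lie above 0 with a median of 0.31, and untreated 42 lie above 0 with a median of 0.11, while 0 passed the adjusted threshold in either state.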

How the data were processed

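RNA of each of 12 samples was read on an Affymetrix ST array. The authors deposited log2 values, and RMA and limma are the tools named per the submitters' processing notes, with no version. Of 32321 probe sets, 19158 were annotated to 1 gene, 1388 to several and 11775 were not listed, and only the first kind was used, unfiltered and as deposited. limma 3.58.1 in R 4.3.3 (lmFit on 4 group means, eBayes defaults, 8 residual degrees of freedom) gave two-sided p values, adjusted by Benjamini-Hochberg over 18404 genes, with a threshold of 0.05. With 3 arrays against 3, exact permutation p values start at 0.1. On simulated data for the ATRA comparison in control cells, over 18404 genes, 90% of changes of -1, 74% of -0.5, 52% of 0.5 and 86% of 1 were recovered, with 7 false calls among 158. Simulated noise was independent between genes, and each size was given to 50 genes. The data had 3844 genes called lower and 2800 higher, and whole arrays that stood apart. These rates therefore check the fit and do not give the power or error in the data.

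Untreated and ATRA arrays were matched by shRNA and replicate number. Deviations of same-numbered arrays correlated between -0.17 and 0.23, and the labels do not say that they share a culture, so line as a block is an alternative. Other alternatives were quantile normalization, a filter on dim genes, means of probe sets, array weights, a trended robust prior, scrambled and shRNA1 lines only, and leaving out each array. Leaving out both wild type arrays was added after seeing the data. Members, roles, lists and motifs were chosen with earlier results of these data known. Per-array values were given for the largest and smallest control change in each role, the smallest p in the comparisons of knockdown with control, and the textbook genes POLR1A, UBTF, FBL, NCL and NPM1.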

Additional observations from a re-analysis of the deposited data

How the results depend on the processing

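Across the 20 alternatives, members called lower numbered 42 to 50 in control cells and 39 to 47 in knockdown cells, and 0 were called higher. Over all genes in each fit, 2218 to 4628 were lower in control cells and 1415 to 3245 in knockdown cells. The fit as reported had 3844 and 2714. The lowest counts came with scrambled and shRNA1 lines only, which leaves fewer arrays. Leaving out one array at a time gave 45 to 48 lower in control cells (medians -1.15 to -0.90) and 45 to 47 in knockdown cells (medians -0.80 to -0.74). These fits called 2977 to 3884 of all genes lower in control cells and 2012 to 2878 in knockdown cells. The replicate block by line gave 46 members lower in knockdown cells and 45 in control cells, against 2578 and 3761 of all genes. With this block UBTF was lost in both and RRP12 in control cells, and 0 members were called elsewhere. After ATRA, the count of members higher in knockdown cells was 1 with the dimmest genes left out, 2 with array weights and 0 to 4 without one array, against 0 as reported. Over all genes these fits called 44 higher and 19 lower, 383 higher and 313 lower, and 0 to 420 higher and 0 to 281 lower, against 10 and 1. The medians without one array were 0.031 to 0.16 before ATRA, 0.19 to 0.39 after it and 0.080 to 0.32 for the difference in response. Small changes turned sign. In control cells NOP10 was 0.060 with quantile normalization, and UTP6 ran from -0.64 to 0.037 without one array. In knockdown cells TAF1D was 0.0010 with quantile normalization, and NOP10 was -0.032 with array weights, -0.092 with scrambled and shRNA1 lines only and -0.071 to 0.054 without one array. The causes were not tested. Quantile normalization moved the median of all genes by less than 0.1. It gave 45 members lower in control cells, with a median of -0.94, and 3079 of all genes lower there. UBTF was then lost in both kinds of cells and RRP12 in control cells. The difference in response was positive in 41 of 52 members, against 48 as reported.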
